A study of Homo sapiens with 14 samples.

Results

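Complement is a cascade of blood and tissue proteins that marks surfaces for clearance and can open membranes. This account follows 9 human genes of that system in OVCAR4 cells, an established line of high-grade serous ovarian cancer, after knockdown of transcription factors. They were matched by symbol among 58219 genes in the deposited table, and all 9 were found and tested. They are the C1 proteases C1R and C1S with their inhibitor SERPING1, the central component C3 and the alternative-pathway protease CFB, the membrane regulators CD46, CD55 and CD59, and the protease trap A2M. A2M was chosen by its measured rise on loss of PAX8. Its values in the siPAX8 and siDual groups are therefore description, with no test, and it stays out of the counts below.

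The study has 14 libraries in 7 groups of 2, each named for its small interfering RNA (siRNA), which directs the degradation of a matching transcript. Each culture of 300000 OVCAR4 cells took up siRNA at 120 nM by reverse transfection, got new medium at 24 hours, and gave its RNA at 72 hours. The groups siNT1 and siNT2 received a commercial and a custom non-targeting Dharmacon pool. The groups siPAX8, siSOX17, siMECOM and siWT1 received a pool against the gene in the name, and siDual combined those against PAX8 and SOX17. The labels do not say whether siDual got 120 nM of each pool or in all. All groups are the same cell line and received siRNA, and no untransfected group was analysed here. The labels do not state that replicates are separate transfections, and every p-value then measures only the spread between these libraries, which may be technical. The series title speaks of predicting master transcription factors from expression data.

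The classical route of complement starts when C1q binds a surface and C1R activates C1S, which SERPING1 (C1 inhibitor) blocks. All routes meet at C3, whose cleavage coats a surface, and CFB supplies the protease that amplifies this step. Host cells carry CD46 (a cofactor for the inactivation of deposited C3b), CD55 (which dissociates C3 convertases) and CD59 (which blocks assembly of the membrane attack complex). A2M is a secreted relative of C3 that entraps proteases and is taken up through the receptor LRP1. Liver makes most circulating complement, while epithelial and tumour cells make part of the set and carry the membrane regulators.

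Library totals were 40832825 to 49059114 counts in the 4 control libraries and 41107918 to 49803860 in the other 10. The targeted genes were lower where the labels say so. PAX8 was at 192 to 225 CPM (counts scaled to a common library size, TMM-corrected) in the controls against 32.8 to 52.8 in siPAX8 and siDual, SOX17 at 104 to 119 against 13.1 to 17.7 in siSOX17 and siDual, and MECOM at 125 to 133 against 8.76 and 16.4 in siMECOM. The knockdowns also moved each other's targets: MECOM read 43.6 to 51.1 CPM in siSOX17 and siDual, SOX17 219 to 240 in siMECOM, and PAX8 112 and 118 in siWT1. WT1 had only 75 counts over the 4 control libraries and 1 in siWT1, so its target was barely expressed. Serous epithelial markers were present, with all 10 at 1 CPM or more in some library. Their sum was 4560 to 5350 CPM in the controls, 8886 to 11350 in siPAX8, 14190 to 14430 in siSOX17, 19170 to 22040 in siDual, 4992 to 5784 in siMECOM and 4098 to 4330 in siWT1. Most of that sum came from KRT7, KRT8, KRT18 and KRT19, and KRT8 averaged 1408 CPM in the controls against 8758 in siDual. Lower in siDual were WFDC2 (mean 124 CPM in the controls, 66.9 in siDual), MSLN (0.903 and 0.403) and the targeted PAX8. Of 10 immune markers, 2 reached 1 CPM in any library, CSF1R and CD68, and their list summed to 22.4 to 27.1 CPM in the controls, 53.9 to 83.5 in siPAX8, siSOX17 and siDual, and 10.7 to 19.0 in siMECOM and siWT1. The defining leukocyte genes PTPRC, MS4A1, TYROBP and CD3E were below 1 CPM everywhere. Of 8 hepatocyte markers, ALB, TTR, APOB and CYP3A4 stood at or near 0, and the list sum of 17.6 to 33.9 CPM came from SERPINA1 and APOA1. The 10 fibroblast markers summed to 35.4 to 45.8 CPM in the controls, 62.2 to 84.7 in siPAX8, siSOX17 and siDual, and 26.5 to 28.6 in siMECOM and siWT1, and 3 of them reached 1 CPM. Nearly all of that sum was COL1A1, at a mean of 37.9 CPM in the controls and 77.0 in siDual. In siPAX8 THY1 was lower (0.510 CPM in the controls, 0.0425 in siPAX8) and LUM higher (0.454 and 2.06). The 8 endothelial markers summed to 18.1 to 20.7 CPM in the controls, 27.1 to 28.7 in siPAX8, 12.3 to 13.3 in siSOX17 and siDual, and 18.5 to 22.4 in siMECOM and siWT1. Within that list CDH5 was higher in siPAX8 (mean 4.62 CPM in the controls, 12.5 in siPAX8) and ERG lower (9.05 and 7.16). The 7 mesothelial markers summed to 120.4 to 152.5 CPM in the controls, 58.9 to 96.5 in siPAX8, 106.7 to 130 in siSOX17, 60.7 to 83.9 in siDual, 39.4 to 58.0 in siMECOM and 35.3 to 43.5 in siWT1. Most of that sum was UPK3B, at a mean of 134 CPM in the controls and 35.6 in siWT1. Other markers of the list went both ways. LRRN4 averaged 1.65 CPM in the controls and 20.4 in siSOX17, KRT5 1.61 and 5.59 in siPAX8, and MSLN 0.903 and 0.390 in siPAX8. Genes on the mitochondrial chromosome took 5.34 to 6.13% of the control counts and 7.91 to 11.0% in the other groups. Ribosomal RNA genes took 0.612 to 0.712% in the controls, 1.36 to 1.59% in siPAX8, siSOX17 and siDual, and 0.660 to 1.07% in siMECOM and siWT1. These marker, mitochondrial and ribosomal RNA values move with the groups, and their part in the results below was not tested. In bulk RNA, fewer cells of a kind and less RNA per cell cannot be told apart.

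Promoter sequences are shown for CD46 and CD59, 2 membrane regulators that rose together in 3 groups, and for the short CFB stretch that holds matches to 2 motifs of inflammatory factors. They come from the RefSeq table (GRCh38.p14), which held windows for 5 members (CD46, CD55, CD59, CFB and C1R) and none for C3, C1S, SERPING1 or A2M. The CD46 and CD59 sequences are the 250 bases before the most upstream listed start, outside all exons of the deposited table. CD46 lies at chr1:207751788-207752037 (plus strand), CD59 at chr11:33736480-33736729 (minus strand) and the CFB stretch of 30 bases at chr6:31945983-31946012 (plus strand), inside an exon of longer CFB transcripts. Capitals mark motif matches: the GC box bound by SP1 (GGGCGG, here read on the other strand) in CD46, the STAT motif TTCNNNGAA in CD59, and the NF-kappaB consensus followed by the STAT motif in CFB.
CD46: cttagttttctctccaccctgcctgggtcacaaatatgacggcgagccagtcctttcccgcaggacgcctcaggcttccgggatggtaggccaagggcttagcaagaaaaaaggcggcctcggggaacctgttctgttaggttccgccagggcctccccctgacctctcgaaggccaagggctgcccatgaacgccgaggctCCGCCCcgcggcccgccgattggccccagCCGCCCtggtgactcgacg
CD59: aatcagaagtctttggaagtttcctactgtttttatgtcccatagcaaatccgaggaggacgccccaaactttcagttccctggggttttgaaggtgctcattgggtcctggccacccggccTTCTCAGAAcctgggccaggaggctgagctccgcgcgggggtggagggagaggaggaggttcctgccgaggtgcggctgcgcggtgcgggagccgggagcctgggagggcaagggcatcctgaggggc
CFB: GGGGCCCTCCcgcttggatgTTCCGGGAAa

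Motifs of 6 kinds were searched on both strands of the 300-base windows, 250 before to 50 after each start. They were the SOX core ACAATNG, the core GCGTGAC of PAX2, PAX5 and PAX8, the NF-kappaB consensus, TTCNNNGAA for STAT, TTGCNNAA for C/EBP, and the GC box. No match overlapped another in the printed stretches. Of 35116 windows, 6.99% held the SOX core, 2.52% the PAX core, 7.73% the NF-kappaB consensus, 7.66% the STAT motif, 10.5% the C/EBP motif and 45% the GC box. None of the 10 windows of the 5 members held the SOX or PAX core, which says only that these letters are not in these windows. The CFB window held the NF-kappaB consensus starting 112 bases and the STAT motif 92 bases before its start. The CD59 window printed in part above also held GC boxes at offsets -4 and 9 from its start, and that of CD46 a further one at 5. These reach past the printed bases and are not marked. A match is a string of letters, not a bound site.

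The members spanned a wide range of levels before any knockdown. Per kilobase of exon, the 4 control libraries averaged 133 ± 9.16 CPM for C3 (SD, n = 4), 11.0 ± 0.257 for CD59, 5.21 ± 0.668 for CD46, 3.56 ± 0.566 for CD55, 2.23 ± 0.183 for SERPING1 and 2.19 ± 0.296 for CFB. C1S (0.217 ± 0.0355), A2M (0.0788 ± 0.0258) and C1R (0.0719 ± 0.016) were far lower. C3 ranked 62nd to 69th by raw count among all genes of a control library, with 43466 to 57580 reads. C1R rested on 8 to 34 reads per library, which limits what could be detected. Between the control pools 0 of the 8 members other than A2M were called at an adjusted p under 0.05, against a background of 0.3% of 21032 genes by the quasi-likelihood test of edgeR, here and below adjusted by Benjamini and Hochberg's method. CD55 was the nearest (log2 difference 0.33 ± 0.14, SE, siNT1 higher) with an unadjusted p of 0.0298, the only member under 0.05, and DESeq2 called none of those for which it gave an adjusted p (all but C1R).

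**Figure D1:**
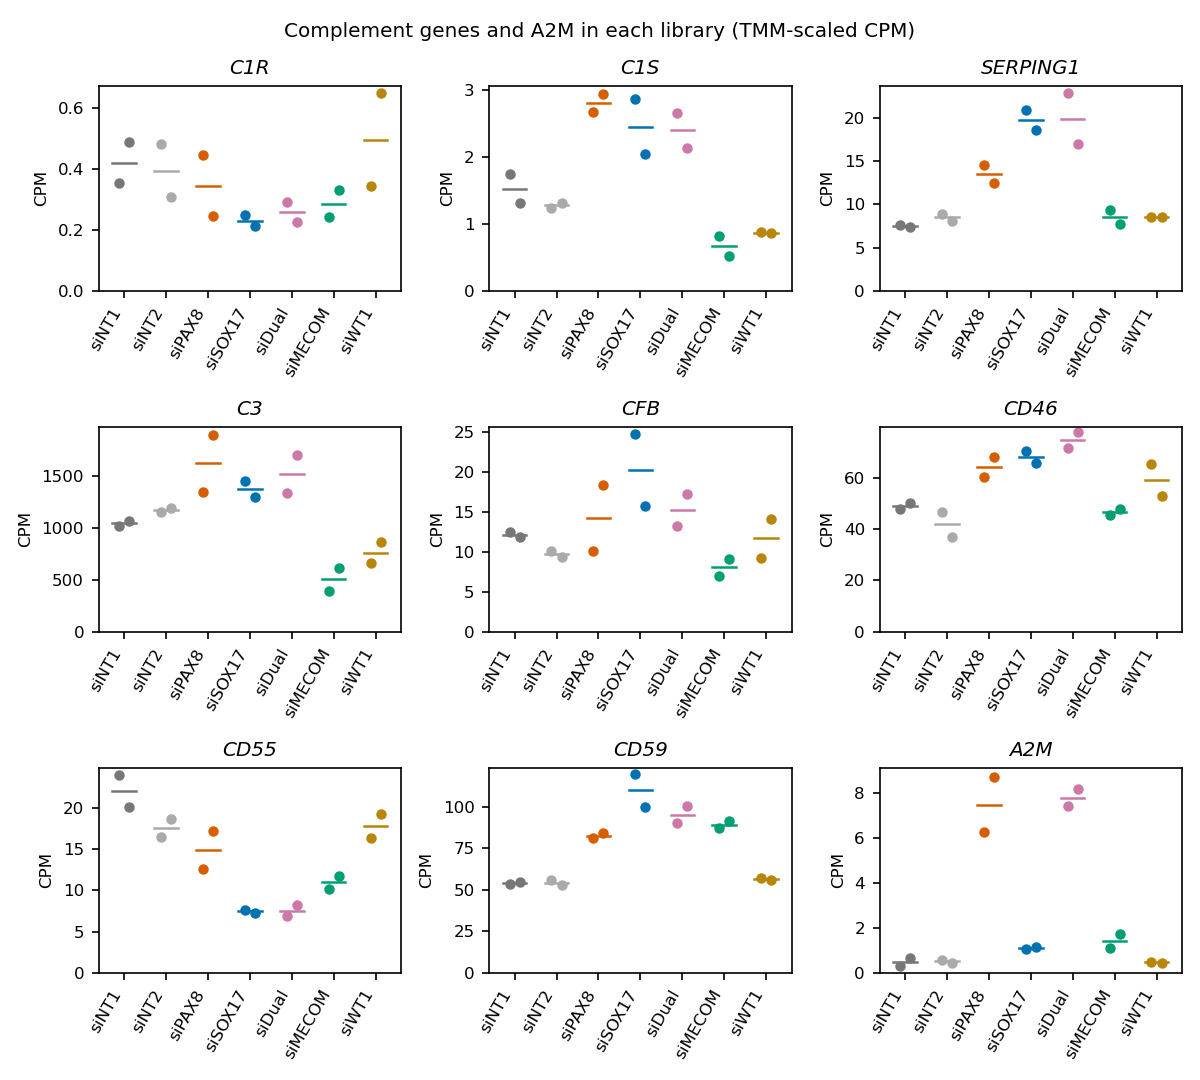
Level of each of the 9 genes (CPM on TMM-scaled library sizes, linear axis from 0) in every library, with points for the 2 libraries of a group and a line for their mean. A2M stands at 6.29 to 8.71 CPM in siPAX8 and siDual and at 1.73 CPM or less elsewhere, while C3 and C1S are lowest in siMECOM.

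Of the 8 members other than A2M, 5 rose and 1 fell in siPAX8, where 26.9% of all tested genes rose and 25.4% fell. In siSOX17 also 5 rose and 1 fell (background 27.2% and 25.5%), and in siDual 6 rose and 1 fell (28.9% and 27.3%). siMECOM had 1 higher and 3 lower (16.5% and 16.1%), and siWT1 1 higher and 2 lower (17.7% and 19.8%). The median log2 fold change of the 8 was 0.53 in siPAX8, 0.70 in siSOX17, 0.61 in siDual, -0.46 in siMECOM and 0.08 in siWT1. Over all 21032 genes it was -0.00044, -0.0060, -0.0043, 0.0099 and -0.0023 in the same order. These comparisons share the 4 control libraries, so their values are given side by side and are not independent of each other. The 8 members were also chosen with earlier results of these data known, so they are not a set fixed beforehand.

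**Figure D2:**
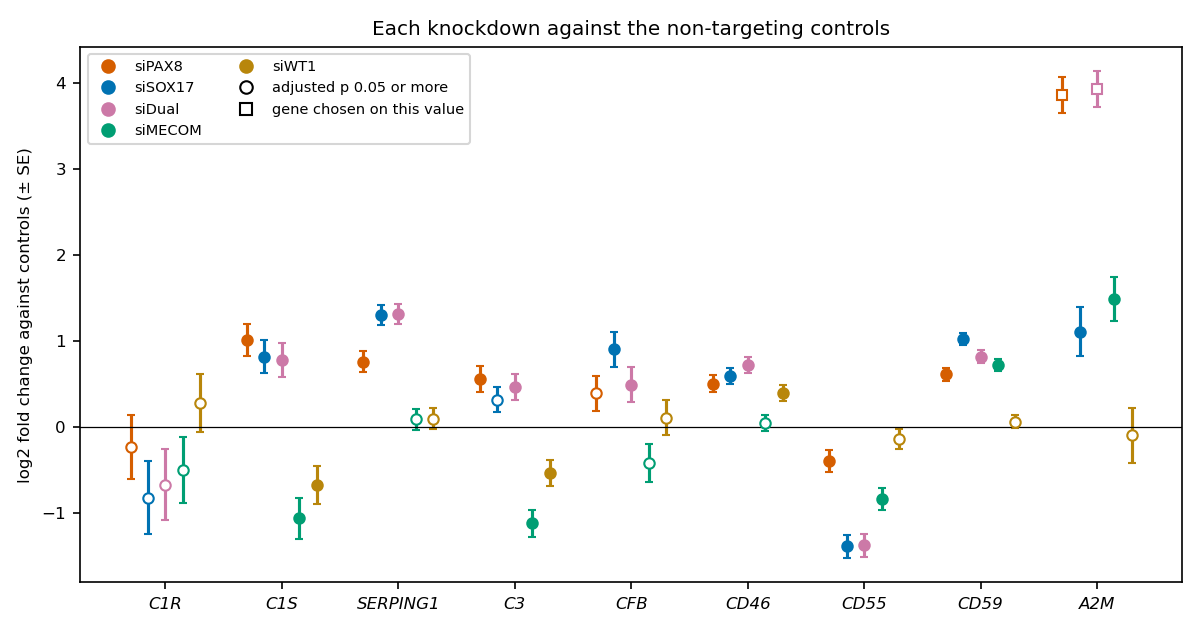
Log2 fold change of each gene against the mean of the control pools (points, with 1 SE) in the 5 knockdown groups. Open circles did not pass an adjusted p of 0.05, and open squares are the values on which A2M was chosen; CD55 runs from -0.14 in siWT1 to -1.39 in siSOX17, opposite to CD59.

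The C1 proteases and their inhibitor did not move as a block. C1S (ENSG00000182326.14, chromosome 12 at 6988259 to 7071032, hg38, plus strand) stood at 1.24 to 1.74 CPM in the 4 control libraries. It was 2.68 and 2.94 CPM in siPAX8, 2.86 and 2.04 in siSOX17, 2.66 and 2.14 in siDual, 0.815 and 0.526 in siMECOM, and 0.876 and 0.862 in siWT1. The first 3 of these groups lay above every control library and the last pair below, with no overlap. C1S rose in siPAX8 (log2 fold change 1.01 ± 0.19, adjusted p = 0.000152), siSOX17 (0.82 ± 0.20, adjusted p = 0.00161) and siDual (0.78 ± 0.20, adjusted p = 0.00214). It fell in siMECOM (-1.07 ± 0.24, adjusted p = 0.00183) and siWT1 (-0.68 ± 0.22, adjusted p = 0.021). The C1S calls rest on 27 to 132 reads per library, and several need both libraries. Without siSOX17 replicate 1 the rise was 0.55 (adjusted p = 0.0847), without siDual replicate 1 it was 0.62 (0.0504), and without siMECOM replicate 2 the decrease was -0.77 (0.0729). The siWT1 decrease lost its call without siWT1 replicate 1 (-0.69, 0.0971) or 2 (-0.67, 0.102), without siNT1 replicate 1 (-0.57, 0.0702) and against siNT2 alone (-0.56, 0.105).

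In order of mean level the C1S groups ran siPAX8, siSOX17, siDual, siNT1, siNT2, siWT1, siMECOM. Neighbours whose libraries overlapped were siPAX8 with siSOX17, siSOX17 with siDual, and siNT1 with siNT2. A further gene without a name in the tables used (ENSG00000268439.5) shares 229 exon bases with C1S, 3.54% of its exons, and went its own way, with 703 to 855 reads in the controls, 501 and 444 in siPAX8 and 1207 and 1024 in siWT1.

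C1R (ENSG00000159403.15, chromosome 12 at 7080209 to 7092607, minus strand), the partner that activates C1S, lies next to it and had 0.308 to 0.489 CPM in the controls. The other libraries lay between 0.212 CPM (siSOX17) and 0.651 CPM (siWT1), and siPAX8, siMECOM and siWT1 overlapped the controls. None of the 5 comparisons called it. The widest was siSOX17 at -0.82 ± 0.43 (adjusted p = 0.113), with a 95% interval from -1.83 to 0.18. C1R shares 672 exon bases (11.8%) with its neighbour C1RL, and how reads there were assigned is not stated.

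SERPING1 (ENSG00000149131.15, chromosome 11 at 57597387 to 57614853, plus strand), the serpin that inactivates C1R and C1S, read 7.66 and 7.43 CPM in siNT1 and 8.92 and 8.14 in siNT2. It read 14.6 and 12.5 in siPAX8, 21.0 and 18.6 in siSOX17, and 22.9 and 16.9 in siDual, all above every control. In siMECOM (9.38 and 7.72) and siWT1 (8.57 and 8.56) it overlapped them. SERPING1 rose 1.69-fold in siPAX8 (log2 0.76 ± 0.12, adjusted p = 2.12e-05), 2.47-fold in siSOX17 (1.30 ± 0.12, adjusted p = 1.64e-08) and 2.48-fold in siDual (1.31 ± 0.12, adjusted p = 1.09e-08). Its values in siMECOM (0.09 ± 0.12, adjusted p = 0.627, interval -0.20 to 0.38) and siWT1 (0.10 ± 0.12, adjusted p = 0.576, interval -0.19 to 0.38) did not pass. In order of mean level, siDual and siSOX17 overlapped, siPAX8 stood apart below them, and siWT1, siMECOM and siNT2 overlapped in turn above siNT1.

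C3 (ENSG00000125730.16, chromosome 19 at 6677704 to 6730562, minus strand) read 1024 and 1066 CPM in siNT1 and 1154 and 1189 in siNT2. It was 1352 and 1899 CPM in siPAX8, 1453 and 1300 in siSOX17, and 1338 and 1707 in siDual, which all lay above the controls. It was 398 and 616 CPM in siMECOM and 660 and 861 in siWT1, all below the controls and without overlap between these groups. The largest change was the decrease in siMECOM, 2.18-fold (log2 -1.13 ± 0.16, adjusted p = 2e-05), which no alternative ended. C3 fell in siWT1 too (-0.54 ± 0.15, adjusted p = 0.00946), but not without siWT1 replicate 1 (-0.36, adjusted p = 0.189) or against siNT1 alone (-0.46, 0.0533).

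The increases of C3 were small and leaned on single libraries. C3 rose in siPAX8 (0.56 ± 0.15, adjusted p = 0.00384), and without siPAX8 replicate 2 the value was 0.29 (adjusted p = 0.183). In siDual it rose by 0.46 ± 0.15 (adjusted p = 0.0126), and the call ended without siDual replicate 2 (0.28, adjusted p = 0.25), with DESeq2 (0.47, 0.0655) and against siNT2 alone (0.38, 0.0783). In siSOX17 it did not pass (0.32 ± 0.15, adjusted p = 0.0846), though it did when only the 3 groups compared were fitted (adjusted p = 0.00185), without a low-count filter (7.3e-05) and without siMECOM replicate 1 (0.0377) or 2 (0.0376). In order of mean level siPAX8 overlapped siDual and siDual overlapped siSOX17, while siSOX17, siNT2, siNT1, siWT1 and siMECOM followed with no overlap between neighbours.

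The annotation also lists a sense intronic transcript inside C3, AC008760.2 (ENSG00000276980.1, chromosome 19 at 6716386 to 6717742), which shares no exon base with it. It read 3.13 to 5.50 CPM in the controls, 1.08 and 2.23 in siPAX8, 4.01 and 5.97 in siSOX17, 2.05 and 3.46 in siDual, 0.969 and 1.40 in siMECOM, and 0.514 and 1.17 in siWT1. AC008760.2 fell in siPAX8 (-1.32 ± 0.31, adjusted p = 0.00137), siMECOM (-1.78 ± 0.32, adjusted p = 0.000288) and siWT1 (-2.29 ± 0.34, adjusted p = 2.94e-05). In siPAX8 its direction was thus opposite to that of C3, and in siMECOM and siWT1 it was the same. The feature was singled out after its values were seen.

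CFB (ENSG00000243649.8, chromosome 6 at 31945650 to 31952084, plus strand) read 12.4 and 11.9 CPM in siNT1 and 10.1 and 9.31 in siNT2. It read 10.1 and 18.4 in siPAX8, 24.7 and 15.8 in siSOX17, 13.2 and 17.2 in siDual, 7.02 and 9.12 in siMECOM, and 9.22 and 14.2 in siWT1. The siSOX17 and siDual libraries lay above the controls, siMECOM below, and siPAX8 and siWT1 overlapped them. CFB rose 1.87-fold in siSOX17 (log2 0.90 ± 0.20, adjusted p = 0.000931), a call lost without siSOX17 replicate 1 (0.54, adjusted p = 0.084). In siDual it was 0.49 ± 0.21 (adjusted p = 0.05, just under the threshold before rounding), and the call was lost with DESeq2 (0.50, adjusted p = 0.167), with a filter of 1 CPM in 2 libraries (0.50, 0.0554) and without mitochondrially encoded genes (0.47, 0.0597). It was also lost without siDual replicate 2 (0.28, 0.422), without replicate 1 of siNT1 (0.51, 0.0747), without replicate 2 of siNT1 (0.47, 0.0967), replicate 1 (0.52, 0.0611) or 2 (0.44, 0.109) of siNT2, and against siNT1 alone (0.33, 0.268).

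The CFB values in siPAX8 (0.39 ± 0.21, adjusted p = 0.124), siMECOM (-0.42 ± 0.22, adjusted p = 0.15) and siWT1 (0.11 ± 0.21, adjusted p = 0.72) did not pass. Without siPAX8 replicate 1 the first became 0.76 (adjusted p = 0.00612), and the second was called when only the groups compared were fitted (adjusted p = 0.0099). By mean level the groups ran siSOX17, siDual, siPAX8, siNT1, siWT1, siNT2 and siMECOM, and each overlapped the next except siNT2 and siMECOM. CFB shares 2249 exon bases, 45% of its exons, with AL645922.1 (ENSG00000244255.5), a coding gene model on the same strand that spans from the C2 locus over CFB. AL645922.1 read 10.6 to 14.2 CPM in the controls and 26.5 and 17.7 in siSOX17 (0.84 ± 0.18, adjusted p = 0.000658), and reads of the 2 models cannot be told apart in the shared exons. C2 itself, the classical-pathway counterpart of CFB, fell in siMECOM (-0.74 ± 0.14, adjusted p = 0.000384).

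The 3 membrane regulators went in different directions. CD46 (ENSG00000117335.19, chromosome 1 at 207752057 to 207795513, plus strand) read 47.7, 50.1, 46.8 and 36.9 CPM in the control libraries, 60.2 and 68.1 in siPAX8, 70.3 and 65.7 in siSOX17, 71.7 and 77.7 in siDual, and 65.5 and 53.1 in siWT1. These 4 groups lay above all controls, while siMECOM (45.5 and 47.7) lay among them. CD46 rose in siPAX8 (0.50 ± 0.09, adjusted p = 0.00016), siSOX17 (0.59 ± 0.09, adjusted p = 2.99e-05), siDual (0.72 ± 0.09, adjusted p = 1.92e-06) and siWT1 (0.39 ± 0.09, adjusted p = 0.00287). The siWT1 call ended without siWT1 replicate 1 (0.23, adjusted p = 0.135) and against siNT1 alone (0.28, 0.0621). In siMECOM CD46 was at 0.04 ± 0.10 (adjusted p = 0.778, interval -0.18 to 0.27). By mean level siDual stood alone at the top, siSOX17, siPAX8 and siWT1 overlapped in turn, and siNT1, siMECOM and siNT2 overlapped below a gap.

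CD55 (ENSG00000196352.14, chromosome 1 at 207321508 to 207386804, plus strand) was the only member that fell in siPAX8, siSOX17 and siDual. It read 23.9 and 20.1 CPM in siNT1 and 16.5 and 18.7 in siNT2. The siSOX17 libraries read 7.66 and 7.30, siDual 6.84 and 8.24, siMECOM 10.1 and 11.8, siPAX8 12.6 and 17.2, and siWT1 16.4 and 19.3. The siSOX17, siDual and siMECOM libraries lay below every control, whereas siPAX8 and siWT1 overlapped them. CD55 fell 2.63-fold in siSOX17 (log2 -1.39 ± 0.14, adjusted p = 6.37e-08), 2.60-fold in siDual (-1.38 ± 0.14, adjusted p = 5.19e-08) and 1.79-fold in siMECOM (-0.84 ± 0.13, adjusted p = 4.32e-05). The siPAX8 decrease was -0.40 ± 0.12 (adjusted p = 0.0108) and lost its call without siPAX8 replicate 1 (-0.19, adjusted p = 0.292) and against siNT2 alone (-0.24, 0.185). In siWT1 it did not pass (-0.14 ± 0.12, adjusted p = 0.379). By mean level siWT1, siNT2 and siPAX8 overlapped in turn, siDual overlapped siSOX17, and the other neighbours did not.

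CD59 (ENSG00000085063.14, chromosome 11 at 33698261 to 33736445, minus strand) was the steadiest member in the controls, at 53.0 to 55.7 CPM. It read 81.2 and 84.1 CPM in siPAX8, 120.1 and 100 in siSOX17, 90.1 and 100.4 in siDual, and 87.0 and 91.3 in siMECOM, all clear of the controls. The siWT1 libraries, at 57.2 and 55.8, stood just above them. CD59 rose in siPAX8 (0.61 ± 0.07, adjusted p = 1.13e-06), siSOX17 (1.02 ± 0.07, adjusted p = 9.99e-10), siDual (0.81 ± 0.07, adjusted p = 1.8e-08) and siMECOM (0.72 ± 0.07, adjusted p = 4.26e-07), and no alternative ended these 4 calls. In siWT1 it was 0.06 ± 0.08 (adjusted p = 0.57, interval -0.12 to 0.24). By mean level siSOX17, siDual and siMECOM overlapped in turn, siPAX8 and siWT1 stood apart, and the control groups overlapped. Across the 7 group means CD59 and CD55 had a Pearson correlation of -0.93 on log2 CPM. That value describes 7 points that share scaling and is given without a test.

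A2M (ENSG00000175899.14, chromosome 12 at 9067664 to 9116229, minus strand), the gene chosen on its rise, had 13, 35, 29 and 20 reads in the control libraries, 0.306 to 0.684 CPM. It had 296 and 391 reads (6.29 and 8.71 CPM) in siPAX8 and 279 and 364 reads (7.42 and 8.19 CPM) in siDual. These are log2 fold changes of 3.87 and 3.93, 14.6-fold and 15.2-fold, given as description. Elsewhere it had 43 and 43 reads in siSOX17 (1.07 and 1.14 CPM), 51 and 89 in siMECOM (1.12 and 1.73 CPM), and 26 and 24 in siWT1 (0.495 and 0.460 CPM). The siSOX17, siMECOM and siWT1 libraries did not choose the gene and were tested. These tests use the same control libraries against which its rise on PAX8 loss was measured. They are therefore not free of that choice. A2M rose 2.15-fold in siSOX17 (log2 1.11 ± 0.29, adjusted p = 0.00313) and 2.81-fold in siMECOM (1.49 ± 0.26, adjusted p = 0.000199), with all 4 libraries above all controls. In siWT1 it did not pass (-0.10 ± 0.32, adjusted p = 0.838, interval -0.86 to 0.66), the group in which PAX8 read 112 and 118 CPM.

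The group order of A2M was siDual and siPAX8, which overlapped, then siMECOM and siSOX17, which overlapped, then both controls and siWT1, which overlapped. The antisense gene A2M-AS1 overlaps 397 exon bases (6.22%) of A2M at its 3' end, and since the strand setting of the counting is not given, their reads cannot be told apart there. A2M-AS1 had 4 to 11 reads per control library, 19 and 20 in siPAX8, 23 and 14 in siDual, 5 and 9 in siSOX17, 8 and 26 in siMECOM and 3 and 2 in siWT1. The siPAX8 and siDual libraries lay above every control library.

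Relatives of A2M in the list used were PZP, A2ML1, CPAMD8 and CD109, with the receptor LRP1 and its chaperone LRPAP1. Of these 6, A2ML1 was too low to test. PZP passed the count filter only through the knockdown libraries, where it is high, so it is left out of the counts. Of the other 4, 2 rose and 0 fell in siPAX8 (26.9% and 25.4% of all genes), 1 and 0 in siSOX17 (27.2% and 25.5%), 1 and 1 in siDual (28.9% and 27.3%), 1 and 2 in siMECOM (16.5% and 16.1%), and 0 and 2 in siWT1 (17.7% and 19.8%). With 4 genes nothing is read from these shares. PZP (pregnancy zone protein), the closest relative of A2M, had 0, 0, 2 and 2 reads in the controls and 6 and 13 in siPAX8, 27 and 18 in siSOX17, 36 and 67 in siDual, 7 and 26 in siMECOM, and 7 and 15 in siWT1. These reads are given as description, with no fold or test, and how any reads that match both relatives were assigned is not stated. LRP1 rose in siPAX8 (0.50 ± 0.08, adjusted p = 4.76e-05), siSOX17 (0.91 ± 0.08, adjusted p = 1.99e-08) and siDual (0.96 ± 0.08, adjusted p = 7.43e-09) and fell in siMECOM (-0.34 ± 0.09, adjusted p = 0.00535) and siWT1 (-0.50 ± 0.09, adjusted p = 0.000152). CD109, a membrane-anchored relative, rose in siMECOM alone among the calls (0.86 ± 0.19, adjusted p = 0.00161), where CPAMD8 fell (-0.99 ± 0.12, adjusted p = 3.72e-06). The CD109 libraries of siMECOM overlapped those of the controls.

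The direct comparisons between PAX8 and SOX17 loss called 3 members. Of the 8 members other than A2M, 1 was higher and 2 lower in siPAX8 than in siSOX17, against 37.3% of all genes called in either direction. CD55 was higher (0.99 ± 0.15, adjusted p = 3.35e-05), and CD59 (-0.41 ± 0.09, adjusted p = 0.000873) and SERPING1 (-0.55 ± 0.13, adjusted p = 0.00319) were lower. CFB did not pass (-0.51 ± 0.24, adjusted p = 0.0977, interval -1.07 to 0.05), nor did C3 (0.24 ± 0.17, adjusted p = 0.304, interval -0.17 to 0.65). The CFB value turned on single libraries: it was -1.005 (adjusted p = 0.00463) without siPAX8 replicate 2 and -0.80 (0.0259) without siSOX17 replicate 2, and it passed with no filter on low counts (-0.50, 0.000402), as C3 did (0.26, 0.00782). The rest, CD46, C1R and C1S, had adjusted p of 0.385 or more. A2M stood 6.77-fold higher in siPAX8 than in siSOX17, given as description.

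Adding the SOX17 pool to the PAX8 pool moved 2 of the 8, with 19.6% of all genes called between siDual and siPAX8. CD55 was lower in siDual (-0.98 ± 0.15, adjusted p = 0.000104) and SERPING1 higher (0.55 ± 0.13, adjusted p = 0.00573). The SERPING1 call was lost without siPAX8 replicate 2 (0.45, adjusted p = 0.0817) and without siDual replicate 1 (0.32, 0.161). Adding the PAX8 pool to the SOX17 pool moved 0 of the 8 by edgeR and 1 at an unadjusted p under 0.05 (CD59, -0.21 ± 0.09, edgeR adjusted p = 0.12), while 15.7% of all genes were called between siDual and siSOX17. DESeq2 called none of the 8 there either. CD59 was called without siSOX17 replicate 2 (-0.33, edgeR adjusted p = 0.0274), and CFB with no filter (-0.42, 0.00798). A2M was 7.06-fold higher in siDual than in siSOX17 and 1.04-fold in siDual over siPAX8, both description.

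CD59, SERPING1 and C1S rose less in siDual than the single pools add up to. Additivity asks whether the log2 change in siDual equals the sum of those in siPAX8 and siSOX17, and 25.1% of all genes departed from it. Among the 8 members 3 did, all below the sum. CD59 changed by 0.81 where the sum was 1.63 (departure -0.82 ± 0.12, adjusted p = 2.89e-05), SERPING1 by 1.31 against 2.06 (-0.75 ± 0.18, adjusted p = 0.00375), and C1S by 0.78 against 1.83 (-1.05 ± 0.29, adjusted p = 0.011). The C1S departure lost its call without siSOX17 replicate 1 (-0.78, adjusted p = 0.0957) or siDual replicate 2 (-0.89, 0.0634). CFB (-0.80 ± 0.31, adjusted p = 0.0714) and CD46 (-0.37 ± 0.15, adjusted p = 0.0717) lay on the same side without passing. CFB passed without siPAX8 replicate 1 (-1.17, adjusted p = 0.00594) or siSOX17 replicate 2 (-1.08, 0.022), and CD46 without siNT2 replicate 1 (-0.46, 0.0163). CD55 changed by -1.38 against a sum of -1.79 (0.41 ± 0.20, adjusted p = 0.146), and without siPAX8 replicate 2 the departure was 0.66 (adjusted p = 0.0251). For A2M, siDual stood at 3.93 where the sum was 4.97, as description. The targeted transcripts themselves were higher in siDual than after the single pools. PAX8 stood at a log2 fold change of -1.98 against -2.52, a difference that edgeR called (0.54 ± 0.08, adjusted p = 0.000124). SOX17 stood at -2.72 against -2.94, which did not pass (0.225 ± 0.12, adjusted p = 0.228). PAX8 also rose in siSOX17 (0.40 ± 0.07, adjusted p = 6.94e-05), and SOX17 fell in siPAX8 (-0.46 ± 0.09, adjusted p = 0.000304). The part of these differences in the shortfall was not tested.

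**Figure D3:**
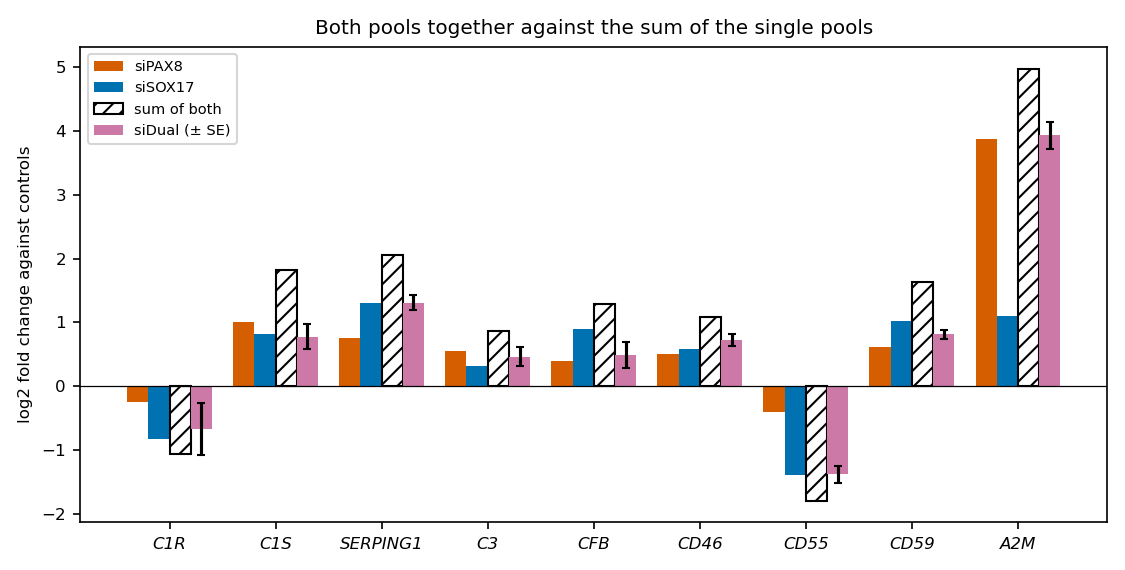
Log2 fold change against the controls in siPAX8, siSOX17 and siDual (bars, with 1 SE on siDual), beside the sum of the 2 single values (hatched), for each gene. For CD59, C1S and SERPING1 the siDual bar falls short of the sum by 0.82, 1.05 and 0.75.

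C3 and CFB differed between the libraries of some groups, in the same direction in all 5 knockdown groups. The log2 difference of replicate 2 from replicate 1 was 0.49 for C3 and 0.86 for CFB in siPAX8, -0.16 and -0.65 in siSOX17, 0.35 and 0.38 in siDual, 0.63 and 0.38 in siMECOM, and 0.38 and 0.62 in siWT1. In the control pools it was 0.06 and -0.07 (siNT1) and 0.04 and -0.11 (siNT2). Across these 7 differences the Pearson correlation of C3 with CFB was 0.88, a description of 7 points without a test. For scale, the median absolute difference over all tested genes was 0.13 to 0.16 in every group, and the C3 difference exceeded 92.9% of genes in siMECOM, 87.1% in siPAX8, 81.8% in siWT1 and 79.2% in siDual, but 51.7% in siSOX17, 24.5% in siNT1 and 16.3% in siNT2. Among other genes compared after their levels were seen, IL6 (0.87) and SAA2 (0.88) had a like correlation with C3, whereas LCN2 (0.27) did not. Among the members CD59 (0.72) and CD55 (0.71) came next after CFB, and C1S (0.08), A2M (0.21) and SERPING1 (-0.35) were lower.

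**Figure D4:**
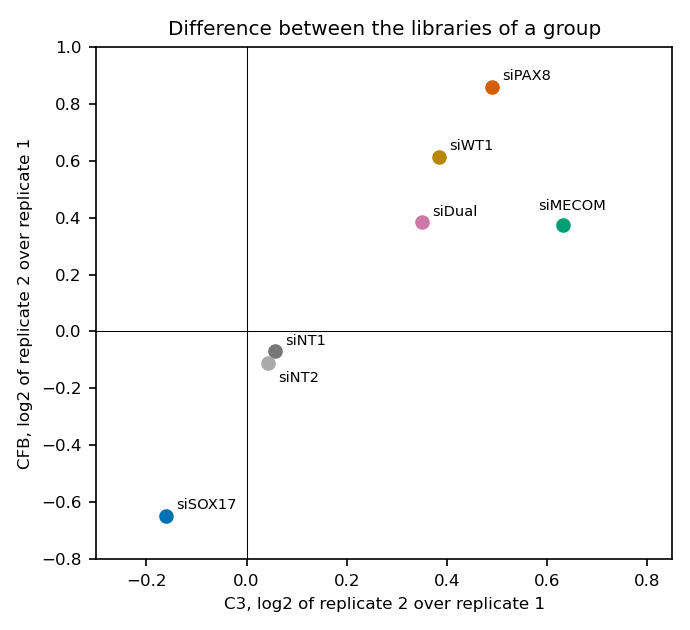
Log2 difference of replicate 2 from replicate 1 for C3 (x axis) against CFB (y axis), 1 point for each of the 7 groups. The control pools sit near 0, siSOX17 lies low on both axes (-0.16 and -0.65), and siPAX8, siDual, siMECOM and siWT1 lie above 0 on both.

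Across the 7 group means of log2 CPM, C3 varied most closely with C1S among the members (Pearson r = 0.96) and less with CFB (0.76). C1R correlated at 0.93 with CD55 and -0.95 with CD59. With 8 to 34 reads per library and no call in any comparison, C1R gives little ground for reading these values. The search for like genes ran over 11921 coding genes for A2M, and 11920 for C3 and CFB, whose log2 CPM averaged 1 or more. Those most like A2M were WNT6 (r = 0.993), PDGFC (0.992), PNPLA8 (0.989), SNRK (0.988) and ANKRA2 (0.987). WNT6, a Wnt ligand, stood at a mean of 50.5 CPM in siPAX8 and 47.8 in siDual against 6.93 and 8.30 in the control pools. The genes most like C3 were C10orf55 and PLAU (urokinase), which overlap each other, both at 0.988, then LOX, ANXA3 and RAB1B, each at 0.984. PLAU fell from 12.3 and 15.7 CPM in the control pools to a mean of 2.99 in siMECOM. For CFB they were ETV5 (0.993), the overlapping model AL645922.1 (0.992), PTP4A1 (0.983), RAB42 (0.981) and MOCS1 (0.98). With 7 points and this many genes, correlations of that size describe likeness only.

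The other genes of complement were mostly silent. Of 47 further genes of the classical, lectin, alternative and terminal pathways, soluble regulators and receptors, 33 were too low to test, among them the C1q chains (C1QA, C1QB, C1QC), MBL2, C4A, C4B, C6, C7 and the receptors CR1 and C3AR1. Of the 14 tested, VTN, C4BPB and ITGAX had fewer than 10 reads in every control library and entered through the knockdown libraries, so they are left out of the counts. Of the other 11, 2 rose and 2 fell in siPAX8, 1 and 1 in siSOX17, 2 and 2 in siDual, 2 and 2 in siMECOM, and 4 and 1 in siWT1. Over all genes 26.9% rose and 25.4% fell in siPAX8, 27.2% and 25.5% in siSOX17, 28.9% and 27.3% in siDual, 16.5% and 16.1% in siMECOM, and 17.7% and 19.8% in siWT1. No difference of the list from these shares was tested. C9, the pore-forming terminal component, read 5 to 16 counts in the controls and 52 to 84 in siPAX8, siSOX17 and siDual. C9 rose in siPAX8 (2.89 ± 0.26, adjusted p = 1.73e-08), siSOX17 (2.72 ± 0.27, adjusted p = 7.83e-08), siDual (2.94 ± 0.26, adjusted p = 1.28e-08) and siMECOM (1.58 ± 0.30, adjusted p = 0.00046). VTN (vitronectin), which blocks the terminal complex, went from 3 to 6 counts per control library to 12 to 45 in the knockdown libraries, given as description.

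Among the more abundant genes of that list, C1QBP, a mitochondrial protein that binds C1q, fell in siPAX8 (-0.22 ± 0.07, adjusted p = 0.0102), siSOX17 (-0.33 ± 0.07), siDual (-0.36 ± 0.07) and siMECOM (-0.22 ± 0.07) and rose in siWT1 (0.22 ± 0.07, adjusted p = 0.0116). Clusterin (CLU), a fluid-phase inhibitor, rose in siMECOM (0.48 ± 0.13, adjusted p = 0.00638) and siWT1 (0.37 ± 0.13, adjusted p = 0.0285). CFI, the protease for which CD46 is a cofactor, rose in siPAX8 (0.71 ± 0.17, adjusted p = 0.00166) and siWT1 (0.53 ± 0.17, adjusted p = 0.0201). C5 fell in siPAX8 (-0.94 ± 0.31, adjusted p = 0.0164). The libraries of CLU in siMECOM and siWT1, and of CFI in siPAX8 and siWT1, overlapped the control libraries.

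Of 15 acute-phase genes 7 were tested, and FGB entered through the knockdown libraries and is left out. Of the other 6, 4 rose and 1 fell in siPAX8 (26.9% and 25.4% of all genes), 5 and 1 in siSOX17 (27.2% and 25.5%), 4 and 1 in siDual (28.9% and 27.3%), 0 and 5 in siMECOM (16.5% and 16.1%), and 0 and 3 in siWT1 (17.7% and 19.8%). The difference of these counts between groups was not tested. LCN2 (lipocalin), for example, rose in siSOX17 (0.97 ± 0.13, adjusted p = 2.86e-06) and fell in siMECOM (-0.85 ± 0.14, adjusted p = 9.09e-05), and SAA2 (serum amyloid) fell in siMECOM by 1.77 on the log2 scale. CP (ceruloplasmin) was the gene that fell in siPAX8, siSOX17 and siDual (-0.96 ± 0.31, -1.56 ± 0.33 and -1.66 ± 0.33). Of 22 cytokine signalling genes, 11 rose and 5 fell in siPAX8, 9 and 5 in siSOX17, 9 and 10 in siDual, 2 and 12 in siMECOM, and 6 and 5 in siWT1, against the same shares of all genes. IL1B, an inflammatory cytokine, went from 0.354 to 0.638 CPM in the controls to 8.37 and 11.1 in siPAX8 (4.33 ± 0.20, adjusted p = 1.67e-12). IL1B also rose in siDual (2.26 ± 0.24, adjusted p = 1.4e-07) and siMECOM (2.11 ± 0.24, adjusted p = 1.24e-06). IL6 went from 26.9 to 56.5 CPM in the controls to 4.204 and 6.196 in siMECOM (-2.84 ± 0.21, adjusted p = 4.54e-09) and 57.1 and 93.8 in siPAX8 (1.01 ± 0.16, adjusted p = 2.9e-05). IL6 fell in siSOX17 (-0.74 ± 0.18, adjusted p = 0.00156) and siDual (-1.09 ± 0.18, adjusted p = 3.9e-05) as well. OSMR, a receptor chain for oncostatin M, rose in siPAX8 (1.78 ± 0.08) and fell in siMECOM (-0.75 ± 0.09). IL1R1, the IL-1 receptor, fell in all 5 groups, from -0.76 ± 0.07 in siMECOM to -1.89 ± 0.08 in siWT1.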

How the data were processed

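Total RNA of 14 OVCAR4 cultures was made into libraries with a BGI-seq protocol, per the labels. The authors deposited whole-number read counts per gene on hg38, not normalised. The submitters' processing notes name STAR 2.5.1b and featureCounts 1.6.3, and the strand setting, annotation release and filters are not given in the sources used here. The gene length that the authors deposited beside the counts gave levels per kilobase. Of 58219 identifiers, 57881 matched GENCODE 29. With edgeR 4.0.16, genes were filtered (filterByExpr, minimum count 10, minimum total 15), which left 21032, and scaled by TMM. A single quasi-likelihood model held all 7 groups (7 residual degrees of freedom, biological coefficient of variation 7.57%). Each knockdown was set against both control pools, weighted equally, and a gene was called at a Benjamini-Hochberg adjusted p under 0.05 over all genes. The SE was taken as the absolute log2 difference divided by the root of its F statistic, and intervals are 95% with 7 degrees of freedom. The procedure was also run on simulated counts in which far fewer genes changed than here, so that run does not measure its error in these data. Likeness used log2(CPM + 0.05). Alternatives were DESeq2 1.42.0, other scaling, filters, controls and fits, and leaving out each library. Named genes were the 9 members, genes overlapping a member, at most 3 called genes per list and direction, and the 5 most alike genes of A2M, C3 and CFB. Members and lists were chosen with earlier results of these data known. List counts keep genes with at least 10 reads in 2 control libraries, a choice made after seeing the data.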

Additional observations from a re-analysis of the deposited data

Results flagged for a closer look

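The response to the PAX8 pool differed with and without the SOX17 pool for 3 members, by a test of the difference itself in edgeR. The log2 departures from additivity were -0.817 for CD59 (adjusted p = 2.89e-05), -1.049 for C1S (adjusted p = 0.011) and -0.751 for SERPING1 (adjusted p = 0.00375). Of all genes 25.1% departed from additivity, so 3 of 8 members is to be read against that share. The C1S departure lost its call without siSOX17 replicate 1 (-0.78, adjusted p = 0.0957) or siDual replicate 2 (-0.89, 0.0634).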

How the results depend on the processing

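Of 1987 alternative values for the members, 1924 counted as unchanged, on the same side of the threshold. None changed sign where it or the main value was called. A value that changed sign without a call in either fit also counted as unchanged. Of the 1924, 1224 came from leaving out 1 library. Some of these libraries lay outside the comparison, which leaves its estimate nearly as it was. For the members, calls that ended are given beside each result above. Calls of genes other than the members were not followed through the alternatives. Between siNT1 and siNT2, 63 genes were called, against 153 with DESeq2, 232 with no filter on low counts and 150 with the replicate block, and 10 to 76 when 1 library was left out. Leaving out 1 library gave 4088 to 6995 genes for siMECOM against the controls (6857 with all libraries), 2662 to 4251 for siDual against siPAX8 (4115) and 1839 to 3400 for siDual against siSOX17 (3297). The lowest values came without siMECOM replicate 2, siDual replicate 1 and siDual replicate 2. Without siNT1 replicate 2, A2M stood at 4.23 in siPAX8 and 4.29 in siDual, as description.

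No label ties a replicate number to a batch. Over 21 pairs of groups, same-numbered libraries correlated at -0.018 to 0.163, over 0.1 in 7 and under -0.1 in 0, so pairing was not assumed. SERPING1 was lower and CP higher in replicate 2 in all 7 groups, and whether the numbers share an effect was not settled. With the replicate block, C3 in siSOX17 (0.32, adjusted p = 0.0185), CFB in siPAX8 against siSOX17 (-0.55, 0.044) and the CFB departure from additivity (-0.80, 0.0374) passed in edgeR. With no filter, or without single libraries, further values near the threshold passed, among them CFB in siPAX8 (0.39, adjusted p = 0.00141) and the CD46 departure (-0.38, 0.0208), and the cause was not tested. C1R, at 8 to 34 reads a library, is the member depth limits most.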
